A study of Homo sapiens with 9 samples.

Results

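Ago-HITS-CLIP peaks of miR-342-5p that lay in coding exons and carried a match to its seed were described by their scores, their reading frame and the residues that the sites encode. Of 5010 peaks in the miR-342-5p list, 3509 had their midpoint in a coding exon on the strand of the peak and in no annotated 3′UTR. Within 50 nt of the summit, 967 of these peaks, in 761 genes, had a seed site. The 2 deposited lists, for miR-342-3p and miR-342-5p, held 8460 peaks in all. The cells were MDA-MB-231HM (231HM), which derive from a human triple-negative breast cancer line and metastasise readily, and they were crosslinked 48 h after transfection with 20 nM of miRVana mimic. The mimic was miR-342-5p, miR-342-3p or a negative control, with 3 libraries of each, and the miR-342-5p peaks are those called against the control libraries. The libraries of a mimic were merged before deposit. A peak therefore had a single score, given as its reads above background, and neither an error between replicates nor a depth per library could be given. Tests and intervals on numbers of peaks or sites cover counting error only, and neighbouring peaks of a gene are not independent. A single cell line that received a synthetic miRNA in excess was studied, so the peaks were measured under that excess.

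Argonaute (Ago) holds a mature miRNA and exposes the bases near its 5′ end, the seed, which pair with complementary sites in mRNAs. An 8mer site pairs with miRNA bases 2 to 8 and has an A opposite base 1. A 7mer-m8 site lacks that A, and a 7mer-A1 site lacks the pair with base 8. Sites in 3′UTRs are the best known to repress an mRNA. Sites in coding sequence are also bound by Ago, but ribosomes pass over them, and they are known to be less effective on average. A site in coding sequence is also read as codons, so its letters fix some of the residues of the protein.

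The mature miR-342-5p sequence, from the RefSeq table, is shown because its seed (capitals) sets every site described here.
miR-342-5p: aGGGGUGCuaucugugauuga
The 8mer site is GCACCCCA, the 7mer-m8 site GCACCCC and the 7mer-A1 site CACCCCA, with U in the mRNA where the genome has T. All share the 6mer CACCCC. The 3 reading frames of this 6mer encode different pairs of residues, and each includes a proline codon, CCC or CCN. The frames were named by the codon position of the base opposite miRNA base 8. At codon position 1, the site reads through a codon ending in CA, then CCC (proline), then a codon starting with C. With the G of an 8mer or a 7mer-m8 site, the first of these is alanine, and with the A of an 8mer or a 7mer-A1 site the last is histidine or glutamine. At codon position 2, the site holds ACC (threonine) and a proline codon starting with CC. At codon position 3, it holds CAC (histidine) and CCC (proline).

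The 3 highest-scoring peaks of each frame carry the sequences that show the frames, given as 10 codons of the sense strand that start on a codon boundary, with the site in capitals (GRCh37, which corresponds to hg19). BSG, the third at codon position 1, had no stretch of that length within 1 exon, and the highest 8mer of that frame, in KMT2A, is given in its place. The codon position 1 sites were in MMP14, which encodes a membrane-anchored matrix metalloproteinase (score 767, chr14:23310748-23310777, plus strand, exon 2 of 10), HSPA8, a constitutive Hsp70 chaperone (score 690, chr11:122929446-122929475, minus strand, exon 6 of 8), and KMT2A, a histone H3 lysine methyltransferase (score 360, chr11:118348753-118348782, plus strand, exon 5 of 36).
MMP14: cacacacagcgctCACCCCAgtcactctca
HSPA8: ggcatacctcctGCACCCCgaggtgttcct
KMT2A: actagaaacaagGCACCCCAggaacctcca
The sites encoded Ser-Pro-Gln in MMP14, Ala-Pro-Arg in HSPA8 and Ala-Pro-Gln in KMT2A. At codon position 2, the highest scores were those of ATP5MC3, a c subunit of mitochondrial ATP synthase (score 625, chr2:176046083-176046112, minus strand, exon 2 of 5), LARP1, an RNA-binding regulator of ribosomal protein mRNAs (score 602, chr5:154179447-154179476, plus strand, exon 10 of 19), and DDB1, an adaptor of CUL4 ubiquitin ligases (score 487, chr11:61081628-61081657, minus strand, exon 14 of 27).
ATP5MC3: tgcgccaagctcgcctGCACCCCctctctg
LARP1: tctcctcgtgcagtCACCCCAgtgccaacc
DDB1: gcttgcttggacatCACCCCAttaggagac
These encoded Cys-Thr-Pro, Val-Thr-Pro and Ile-Thr-Pro. The ATP5MC3 stretch started at residue 4, in the mitochondrial targeting sequence that is removed from the mature subunit. At codon position 3, the highest scores were those of SQSTM1, the autophagy receptor p62 (score 731, chr5:179250908-179250937, plus strand, exon 3 of 8), HSP90AB1, a constitutive Hsp90 chaperone (score 515, chr6:44220929-44220958, plus strand, exon 11 of 12), and UBE2C, a mitotic ubiquitin-conjugating enzyme (score 494, chr20:44444258-44444287, plus strand, exon 4 of 6).
SQSTM1: ccccgcaacatggtGCACCCCAatgtgatc
HSP90AB1: gagatcaaccctgacCACCCCAttgtggag
UBE2C: ctcacgccctgctatCACCCCAacgtggac
The codons from the base opposite miRNA base 8 onward encoded Val-His-Pro-Asn, Asp-His-Pro-Ile and Tyr-His-Pro-Asn. In HSP90AB1 and UBE2C, the codon of the first residue lay just before the letters of the 7mer-A1 site. HSPA8 and HSP90AB1 have close paralogues and many processed copies in the genome. Alignments were filtered by quality before peak calling, but the threshold and the treatment of reads that map to several copies are not given in the sources used here, so those scores are uncertain.

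The scores of the 967 peaks ranged from 5 to 767, with a median of 26 and quartiles of 15 and 51. Only 3 peaks had the lowest score in the list, 5. The 1978 coding exon peaks without a site or a 6mer match had a median of 16 and quartiles of 10 and 32. A score above 50 was reached by 244 of the peaks with a site (25.2%, CI 22.6–28.1%, 95% Wilson) and by 277 of those without (14%, CI 12.5–15.6%). The same threshold was passed by 17.0% of all peaks in the miR-342-5p list. The difference was 11.2 percentage points (CI 8.15–14.4, odds ratio 2.07, Fisher's exact test, two-sided, adjusted p = 2.9e-12). Here and below, adjusted p-values are Benjamini-Hochberg values over 14 comparisons of numbers of peaks or sites, of which 4 passed 0.05. Coding exon peaks with only a 6mer match lay between these groups, with 99 of 564 (17.6%, CI 14.6–20.9%) above 50, which was not tested. The 371 peaks with a site in 3′UTRs had a median of 21, and 75 of them (20.2%, CI 16.4–24.6%) had a score above 50. Coding exon sites exceeded these by 5.02 percentage points, but the interval (-0.0969 to 9.73) included 0 and the difference did not pass the test (exact test, adjusted p = 0.15). With the highest peak of each gene alone in both groups, this difference was 5.97 points, with 214 of 761 and 74 of 334 (exact test, unadjusted p = 0.044). That choice left out 206 coding exon peaks, of genes with several, and cut the 3′UTR peaks from 371 to 334. It favours the higher scores in both groups, and its effect on the difference was not tested. A high score depends on the abundance of the mRNA as well as on Ago binding, and mRNA levels were not used here.

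**Figure D1:**
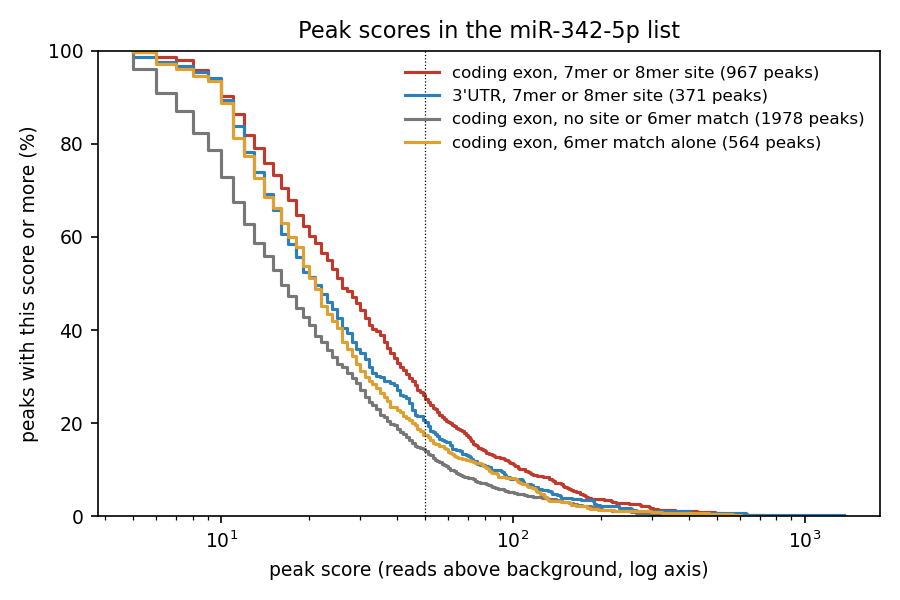
Share of peaks (vertical axis, %) with at least the score on the horizontal axis (reads above background, log axis) for 4 groups of the miR-342-5p list, with the dotted line at 50. Coding exon peaks with a site (red, 967 peaks) lay above those without (grey, 1978 peaks) over most of the range, with medians of 26 and 16.

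Of the 967 peaks, 209 had an 8mer site (21.6%, CI 19.1–24.3%), 382 a 7mer-m8 but no 8mer (39.5%, CI 36.5–42.6%), and 376 a 7mer-A1 alone (38.9%, CI 35.9–42.0%). In 3′UTRs, 99 of 371 peaks (26.7%, CI 22.4–31.4%) had an 8mer. The difference of -5.07 percentage points (CI -10.4 to -0.0383) was at the limit of counting error and did not pass after adjustment (exact test, adjusted p = 0.14). Among peaks with scores above 50, it was -17.0 points, with 30 of 75 3′UTR peaks and 56 of 244 coding exon peaks having an 8mer (exact test, unadjusted p = 0.0047). With the highest peak of each gene alone, it was -2.26 points, with 181 of 761 coding exon peaks and 87 of 334 3′UTR peaks (exact test, unadjusted p = 0.45). Median scores were 30 with an 8mer, 26 with a 7mer-m8 and 25 with a 7mer-A1. A score above 50 was reached by 26.8% of peaks with an 8mer and by 24.8% of those with 7mers alone, a difference of 1.99 points (CI -4.41 to 9.02, exact test, adjusted p = 0.83). Above 100, the difference was 6.37 points (exact test, unadjusted p = 0.013). A single site was present in 925 peaks, 2 sites in 40 and 3 sites in 2.

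The nearest site had its centre 10 nt or less from the summit in 716 of the 967 peaks (74.0%, CI 71.2–76.7%) and in 281 of the 371 3′UTR peaks (75.7%, CI 71.1–79.8%), a difference of -1.70 points (CI -6.68 to 3.63, exact test, adjusted p = 0.83). The summit itself fell on a site in 239 coding exon peaks. The positions had 2 maxima. In 334 peaks (34.5%) the centre was up to 10 nt before the summit, in the direction of the 5′ end of the mRNA, in 308 (31.9%) it was 7 to under 13 nt after it, and in 169 (17.5%) it was between these ranges. The 3′UTR peaks had 33.4%, 31.8% and 22.4% in the same ranges. At the edge of the 50 nt window, 36 peaks had their nearest site with its far end 41 to 50 nt from the summit (median score 11.5), and 40 coding exon peaks just outside it had theirs at 51 to 60 nt (median score 13).

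**Figure D2:**
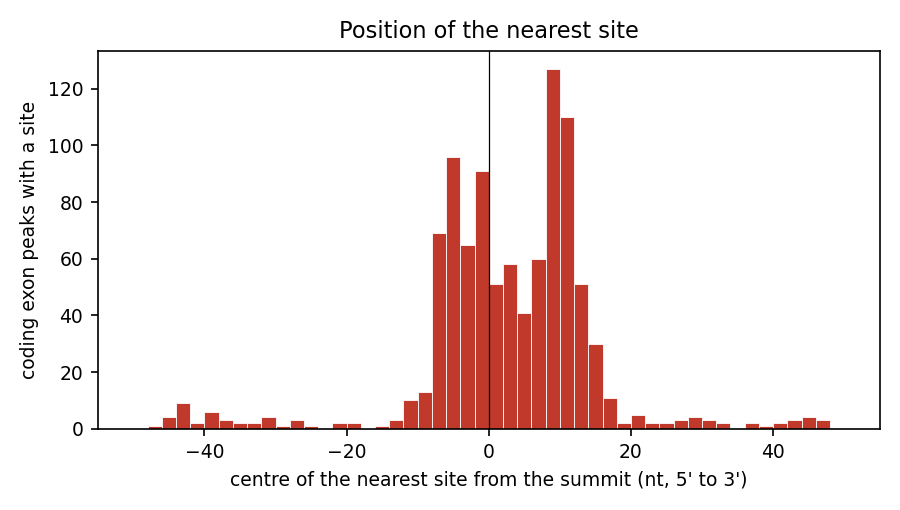
Number of coding exon peaks with a site (vertical axis) by the distance in nt from the summit to the centre of the nearest site (horizontal axis, negative values towards the 5′ end of the mRNA). Most sites lay within 10 nt of the summit (716 of 967 peaks), with a maximum on each side of it.

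The reading frame was taken from 1 transcript per gene. Each site wholly in its coding sequence was assigned to the highest peak that had it. This gave 944 distinct sites at 906 of the 967 peaks. The other 61 peaks were assigned none. Their sites reached into an intron or a UTR of that transcript, lay in an exon of another, or were shared with another peak. How many of the 61 fell in each case was not counted. For comparison, the same genes held 303 other coding sites that were more than 50 nt from every peak of the list, and 35 that were nearer. Only 312 of the 944 sites at peaks were in the 205 genes that held both kinds of site, so most had no counterpart within their gene. The base opposite miRNA base 8 was at codon position 1 in 298 sites at peaks (31.6%, CI 28.7–34.6%), at position 2 in 351 (37.2%, CI 34.2–40.3%) and at position 3 in 295 (31.2%, CI 28.4–34.3%). Of the other sites, 33.3%, 35.6% and 31% were in these frames. The differences were -1.77 (CI -7.97 to 4.14), 1.54 (CI -4.78 to 7.59) and 0.227 percentage points (CI -5.91 to 6.02), and none passed the test (exact tests, p from 0.57 to 1 before adjustment). A difference in frame of several points, within these intervals, was not detectable with these numbers of sites.

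**Figure D3:**
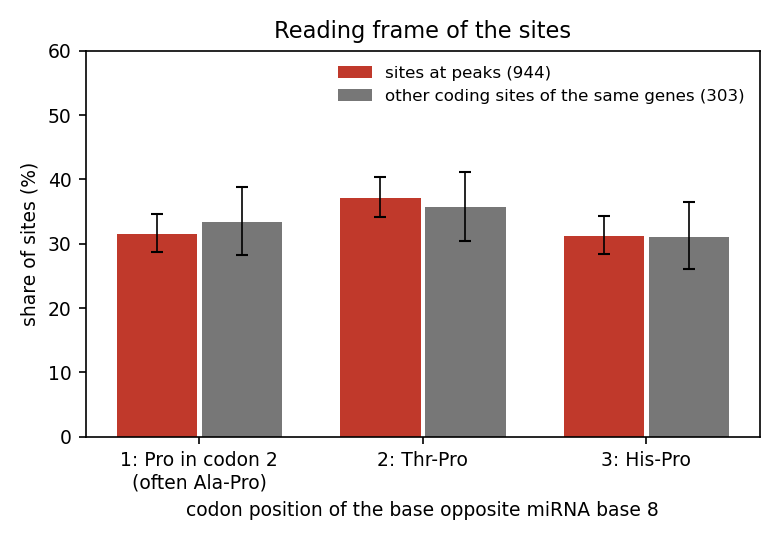
Share of coding sites (vertical axis, %) by the codon position of the base opposite miRNA base 8 (horizontal axis) for 944 sites at peaks (red) and 303 other coding sites of the same genes (grey), with 95% Wilson intervals. The shares of each position differed by less than 2 percentage points between the groups.

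Scores by frame were also close. The median was 30 in the 288 peaks whose nearest assigned coding site was at codon position 1, 26 in the 329 at position 2 and 27 in the 289 at position 3. The share above 50 was lowest at position 2 (23.4%) and highest at position 3 (28.7%), 5.32 points apart (CI -1.60 to 12.2, exact test, p = 0.42 after adjustment over the 3 pairs). The 8mers were most often at codon position 3, with 86 of 198 (43.4%), against 28.2% of 7mer-m8 and 27.8% of 7mer-A1 sites. This lead of the 8mers was present without a peak as well. Of 721 8mers more than 50 nt from every peak in all protein-coding genes, 308 (42.7%) were at position 3, beside 31% of 7mer-m8 and 31.2% of 7mer-A1 sites.

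The encoded residues followed from the frames. All 944 sites encoded at least 1 proline. At codon position 1, the residue before the proline was alanine in 184 of 298 sites (61.7%), proline in 49 (16.4%), serine in 43 (14.4%) and threonine in 22 (7.38%), and the residue after it was most often glutamine (121 sites, 40.6%). At codon position 2, all 351 sites encoded Thr-Pro, most often after serine (72, 20.5%), glycine (58, 16.5%) or cysteine (50, 14.2%). At codon position 3, all 295 sites encoded His-Pro, most often after leucine (73, 24.7%), and followed by serine (41, 13.9%), asparagine (40, 13.6%) or lysine (39, 13.2%). The shares of some neighbours differed at the other coding sites, which was not tested residue by residue. In part they restate the mix of site types. At codon position 1, alanine is encoded where the G of an 8mer or a 7mer-m8 is present, at peaks in 49 8mers and 135 7mer-m8 sites. At codon position 2, that G allows only cysteine, serine, glycine or arginine before Thr-Pro. At codon position 1, alanine preceded the proline in 44 of 101 other sites (43.6%) and proline in 37 (36.6%). At codon position 2, cysteine came before Thr-Pro in 4 of 108 (3.70%), serine in 27 (25%) and glycine in 20 (18.5%). At codon position 3, leucine came before His-Pro in 10 of 94 (10.6%), and serine followed in 14 (14.9%). In the 20 residues around the site's codons, sites at peaks had a mean of 2.36 prolines and the other coding sites 2.50.

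Prolines were counted in the codons that a site touches, except at codon position 3. There, 4 codons were counted for every site. They included a codon that a 7mer does not touch, the codon before a 7mer-A1 or after a 7mer-m8. Sites at peaks less often encoded a second proline within the counted codons. This was so in 142 of 944 sites at peaks (15.0%) and in 90 of 303 other sites of the same genes (29.7%), a difference of -14.7 percentage points (CI -20.4 to -9.23, odds ratio 0.419, exact test, adjusted p = 2.0e-07). In the 205 genes that held both kinds of site, the shares were 16.3% and 29.4% (exact test, unadjusted p = 0.00015). Against the other coding sites of all protein-coding genes, of which 1193 of 5467 had a second proline, the difference was smaller, -6.78 points (exact test, unadjusted p = 1.1e-06). Both 7mers showed the order. For 7mer-m8 sites the shares were 74 of 383 (19.3%, CI 15.7–23.6%) and 34 of 115 (29.6%, CI 22–38.5%), and for 7mer-A1 sites 65 of 363 (17.9%, CI 14.3–22.2%) and 56 of 165 (33.9%, CI 27.2–41.5%). A second proline was rare in 8mers, with 3 of 198 at peaks and 0 of 23 elsewhere (CI up to 14.3%). An extra proline codon adds C to the letters next to the site, so the residue and the base composition cannot be told apart here. This comparison and the next were chosen after the data were seen.

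An 8mer was more frequent among the sites at peaks than among the other coding sites of the same genes. The shares were 198 of 944 (21.0%) and 23 of 303 (7.59%), a difference of 13.4 percentage points (CI 9.06–17.1, odds ratio 3.23, exact test, adjusted p = 1.5e-07). In the genes with both kinds of site, they were 19.6% and 7.43% (exact test, unadjusted p = 1.6e-05). Against the other coding sites of all protein-coding genes, 721 of 5467 being 8mers, the excess was 7.79 points (exact test, unadjusted p = 1.8e-09). Seen the other way, a peak of this kind lay at 87.6% of the 226 8mers (CI 82.7–91.3%), 74.4% of the 515 7mer-m8 sites (CI 70.4–77.9%) and 67.1% of the 541 7mer-A1 sites (CI 63.0–70.9%) in coding sequence of these genes, which were chosen for holding at least 1. A gene set that did not require a bound site was given by the 1059 genes with a coding exon peak without any match. There, a peak lay at 94 of 132 8mers (71.2%, CI 63.0–78.2%), 183 of 346 7mer-m8 sites (52.9%, CI 47.6–58.1%) and 186 of 387 7mer-A1 sites (48.1%, CI 43.1–53.0%).

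The 30 nt on each side of the site were at least 50% A or U at 213 of 944 sites at peaks (22.6%) and at 38 of 303 other sites (12.5%), a difference of 10 percentage points (CI 5.10–14.3, exact test, adjusted p = 0.00036). The difference was lost in the 205 genes with both kinds of site, where the shares were 12.2% and 12.8% (-0.658 points, CI -6.00 to 4.63, exact test, unadjusted p = 0.81). It was 2.72 points against the other coding sites of all protein-coding genes (exact test, unadjusted p = 0.059) and 3.46 points for peaks with scores above 50 (unadjusted p = 0.64). The position in the coding sequence was close in both, with 37.1% and 37% of sites in the last of 3 equal parts (difference 0.113 points, CI -6.22 to 6.22, exact test, adjusted p = 1). The first part held 30.1% and 25.4%, and the middle part 32.8% and 37.6%, which were not tested. For peaks with scores above 50, the difference in the last part was 12.1 points, with 100 of 246 sites at peaks and 18 of 63 others (exact test, unadjusted p = 0.083). The motif CACA, which could pair with miRNA bases 13 to 16, was present in the 15 nt before 7.52% of sites at peaks and 7.92% of the others (difference -0.400 points, CI -4.30 to 2.75, exact test, adjusted p = 0.94). In the 205 genes with both kinds of site, the differences were -0.303 points for the last part and -0.736 points for CACA, and both intervals included 0.

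**Figure D4:**
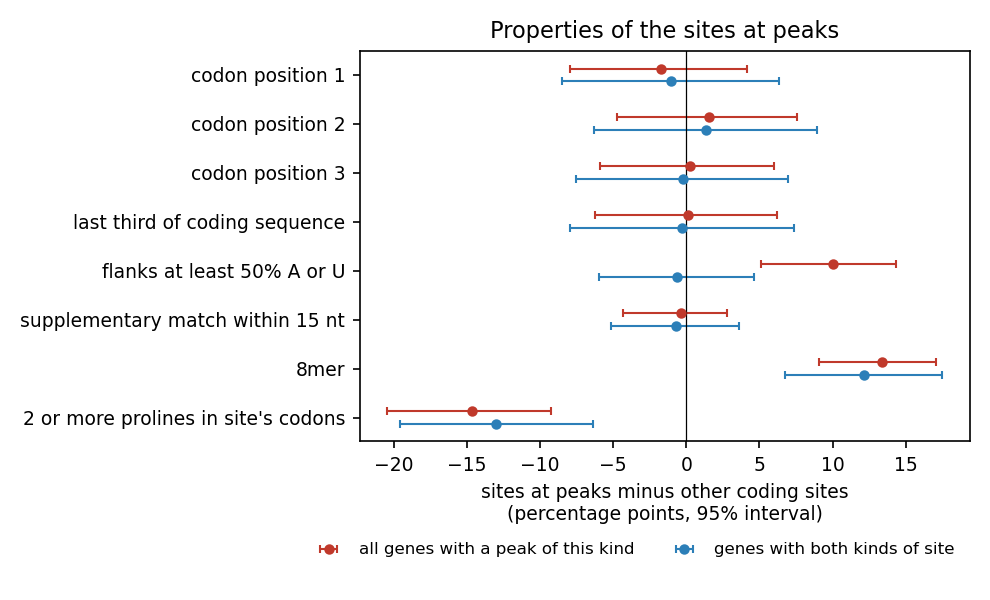
Difference in percentage points (horizontal axis, with 95% intervals) between the share of sites at peaks and that of other coding sites with the property named on the vertical axis, for all genes with a coding exon peak with a site (red) and for the 205 genes with both kinds of site (blue). The 8mer share (13.4 and 12.1 points) and the share with 2 or more prolines (-14.7 and -13.0 points) differed in both sets of genes, and the share with flanks rich in A or U (10 and -0.658 points) in the first.

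Most genes held 1 peak of this kind (642 of 761, 84.4%), and 12 genes held 5 or more. SPEN, a transcriptional corepressor of nuclear receptor and Notch signalling, held the most, with 9 peaks and scores of 23 to 148. Its 9 coding sites included 8 at these peaks, of which 1, 4 and 3 were at codon positions 1, 2 and 3. SRCAP, an ATPase that exchanges histone H2A.Z, held 8 peaks with scores of 6 to 110. All 7 of its coding sites in the chosen transcript lay at these peaks. KMT2D, a methyltransferase of histone H3 at enhancers, held 7 peaks with scores of 8 to 48 and no score above 50. These genes have long coding sequences, of 10992 nt in SPEN, 9690 nt in SRCAP and 16611 nt in KMT2D. A 3′UTR peak with a site was also present in SRCAP, and in 38 of the 761 genes in all (4.99%, CI 3.66–6.78%). This share was 335 of 19825 (1.69%) in all protein-coding genes and 62 of 950 (6.53%, CI 5.12–8.28%) in genes with a coding exon peak but none with a site. A coding exon peak without any match was present in 305 of the 761 genes (40.1%, CI 36.7–43.6%) and in 1059 of all protein-coding genes (5.34%).

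**Figure D5:**
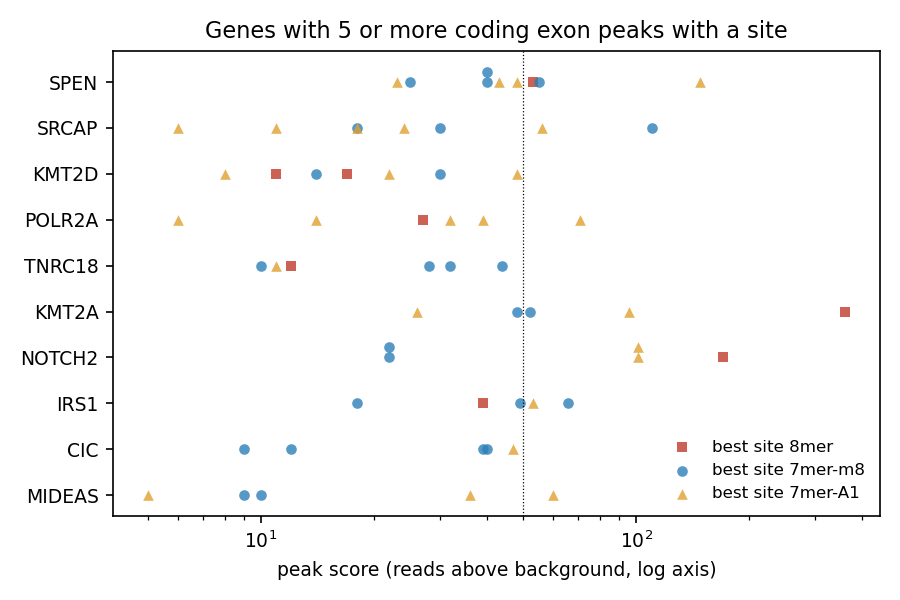
Scores (horizontal axis, reads above background, log axis) of each coding exon peak with a site in 10 of the 12 genes that held 5 or more, with the marker giving the best site of the peak and the dotted line at 50. Points of 1 gene with the same score and type are set above each other, and the highest peak was at an 8mer in KMT2A and NOTCH2.

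Some sites lay at matching places in related proteins or in repeats of 1 protein, which were picked out after the sequences were seen. UBE2L6, which conjugates the ubiquitin-like protein ISG15 (score 31, chr11:57321980-57322009, minus strand, exon 3 of 4), carried a 7mer-A1 in the same frame as UBE2C above. From the codon before the site, both encoded the same residues, Tyr-His-Pro-Asn. The last 3 of these are the conserved motif near the active site of ubiquitin-conjugating enzymes.
UBE2L6: acaaccaagatctacCACCCCAacgtggac
SNRNP200, the helicase of the U5 snRNP, held peaks in both of its helicase cassettes, with scores of 274 (chr2:96961289-96961318, minus strand, exon 14 of 45) and 161 (chr2:96950192-96950221, exon 31). Both sites were 7mer-m8 at codon position 2, with Cys-Thr-Pro and Ser-Thr-Pro before a glutamate.
SNRNP200 exon 14: cagatcatcgtctGCACCCCcgagaagtgg
SNRNP200 exon 31: aacattatcatcaGCACCCCtgagaagtgg
SON, a splicing cofactor with an arginine-serine-rich region, had 3 sites around 1 summit (score 292) in exon 3 of 12, in repeats of the same codons. All were at codon position 2, encoded Arg-Thr-Pro and were followed by serine. They are shown in order, from chr21:34927460-34927489, chr21:34927481-34927510 and chr21:34927502-34927531 (plus strand), and overlap by 9 nt.
SON site 1: agccgccgcagccGCACCCCcagccgccgg
SON site 2: agccgccggagccGCACCCCtagccgtcgg
SON site 3: agccgtcggagccGCACCCCAagccgccgg
A second SON peak (score 64) covered further copies of this repeat. Reads from near-identical repeats cannot be placed with certainty, so the division between these sites is uncertain. The other peak with 3 sites was in CDK2AP2, a CDK2-associated protein (score 31), where 2 sites encoded Ser-Thr-Pro and 1 Gly-Thr-Pro.

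Peaks were also counted in 8 lists of genes by function, beside all protein-coding genes with a coding site, of which 743 of 4476 (16.6%) had one at a peak. The lists were drawn up with results on these data known, and expression was not accounted for, so a share above 16.6% is a description. The genes named were among the highest-scoring of each list. The median over genes of the highest score was 29 in the 743 genes. It was 23.5 for histone and DNA enzymes, 26 for receptors and ligands, 37 for metabolism and 38 for corepressors and mediator. For cell cycle, splicing, matrix and cytoskeletal genes it was 53, 85, 93 and 110.5. Of histone and DNA modifying or remodelling enzymes with a coding site, 22 of 37 had one at a peak, among them KMT2A (score 360) and BRD2 (249), a bromodomain reader of acetylated histones with an 8mer encoding Lys-His-Pro-Met. Of transcriptional corepressors and mediator subunits, 14 of 21 did, among them SPEN (148) and HCFC1 (79), a chromatin-associated host cell factor. Of splicing factors and hnRNPs, 11 of 17 did, led by PRPF8 (295), the core protein of the spliceosome, SNRNP200 (274) and SNRPB (183), a core Sm protein of snRNPs. The extracellular matrix and integrin list had 11 of 21, led by LAMB3 (274), a chain of laminin-332 with an 8mer encoding Cys-Thr-Pro, ITGA3 (156), its integrin receptor subunit with an 8mer encoding Leu-His-Pro-Lys, and PLOD3 (148), a collagen lysyl hydroxylase. The list of actin, spectrin and giant cytoskeletal proteins had 10 of 19, led by SPTBN1 (208), a beta spectrin, PLEC (170), the cytolinker plectin, and TUBA1B (158), an alpha tubulin with near-identical paralogues, so that its score is uncertain.

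Growth factor, Notch, Wnt and TGF-beta receptors and ligands had 9 of 22 genes with a site at a peak. These were led by NOTCH2, whose 5 peaks scored 22 to 170, the highest at an 8mer encoding Cys-Thr-Pro, by LRP5 (81), a Wnt coreceptor, and by INSR (46), the insulin receptor. Cell cycle, mitosis and DNA replication genes had 7 of 19, led by CDC20 (176), an activator of the anaphase-promoting complex, MKI67 (73), the proliferation marker Ki-67, and RRM1 (72), the large subunit of ribonucleotide reductase. The 3 MKI67 peaks lay in its repeats, and their sites all encoded Thr-Pro. Lipid and glucose metabolism genes had 5 of 11, led by GPI (152), PFKP (115) and FASN (37), which encode glucose-6-phosphate isomerase, a phosphofructokinase and fatty acid synthase. The 10 highest peaks also included those of BSG (score 494), the metalloproteinase inducer basigin, with Ala-Pro-Leu, and CCN2 (458), a secreted matricellular protein, with Cys-Thr-Pro. Further 8mer peaks with high scores were in PPP1R15A (293), which directs dephosphorylation of eIF2 alpha, with Ala-Pro-His, and RNF19A (313), a ubiquitin ligase. Of the 967 peaks, 12 overlapped a peak of the miR-342-3p list on the same strand, which rests on the same negative control libraries. This was 1.24% of them (CI 0.711–2.16%), beside 1.77% of the coding exon peaks without any match (CI 1.28–2.45%) and 1.42% of the whole miR-342-5p list.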

How the data were processed

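The deposited lists give for each peak a score that the authors describe as reads above background, which is at least 5. Per the labels' processing notes, reads were handled with cutadapt 1.13, TopHat2 2.0.13, UMI-tools and MACS2 2.1.1.20160309 on hg19, and the methods name a quality filter with Samtools. Peak names show calling by strand and merged replicates, so depth per library is unknown. Coordinates are printed 1-based. Midpoints were placed on GENCODE release 44 mapped to GRCh37, with 3′UTRs before coding exons, and each gene was read in its APPRIS principal, then longest, protein-coding transcript. Other coding sites were more than 50 nt from every peak. Numbers were compared by two-sided Fisher's exact tests with Newcombe and Wilson 95% intervals (scipy 1.17.1 and statsmodels 0.14.6 under Python 3.11.15, with pysam 0.24.0, samtools 1.23.1, biopython 1.88, pandas 2.3.3, numpy 2.4.6 and matplotlib 3.10.9). On simulated transcripts, 300 of 300 planted sites were found in their frame. Named genes were the 10 highest peaks, the 5 highest with an 8mer, the 3 highest per frame, the 5 genes with most peaks, peaks with 3 or more sites, and the 3 highest per gene list; others are marked. No gene named for this experiment in the paper's text held such a peak. The set, gene lists and tests were chosen with earlier results of these data known. No sequence is printed from chromosome 8. Some named genes are not reported here.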

Additional observations from a re-analysis of the deposited data

How the results depend on the processing

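No paired analysis was possible because the lists merge the replicates, and for the same reason no library could be left out. Of 150 alternative values, 141 kept their side of 0.05 and, where called, their direction, or for counts stayed within 1.5 times. The number of peaks moved with the sites and scores admitted, to 209 with 8mers alone, 1531 with 6mers added and 244 with scores above 50. The excess of flanks rich in A or U was 3.46 percentage points among peaks with scores above 50 and 2.72 points against the other coding sites of all protein-coding genes, both past 0.05 no longer, and -0.658 points in genes with both kinds of site. The 8mer share was lower than in 3′UTR peaks by -17.0 points (exact p = 0.0047) for scores above 50, where 75 3′UTR peaks remained. Against 3′UTR peaks, the excess of scores above 50 was 5.97 points with the highest peak of each gene alone. Peaks with an 8mer exceeded those with 7mers by 6.37 points for scores above 100. These last 3 passed 0.05 before adjustment, and the cause of none of the changes was tested. Restriction to scores above 50 was not run for results on scores. The comparison within genes with both kinds of site, the 8mer share of sites and the count of prolines were added after the data were seen. The 8mer share of sites at peaks exceeded that of other coding sites by at least 7.79 points in all 11 alternatives, and the share with 2 or more prolines was different by -17.1 to -6.78 points in its 11. These 2 results are not independent, because an 8mer leaves little room for a second proline. The merged score does not allow the abundance of the mRNA to be separated from binding.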

Other observations

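The mRNA that Ago meets is spliced, while the rule searches the genome around the summit. Searched in the spliced transcript, 94 further coding exon peaks had a site within 50 nt of the summit and 8 of the 967 lost theirs, giving 1053. In 7 of the 94 peaks a site crossed an exon junction, so that its letters are adjacent only in the spliced transcript. These were 2 peaks in PTPRJ, a receptor tyrosine phosphatase (scores 20 and 31), and single peaks in RELA, the p65 subunit of NF-kappaB (20), PIP4P1, a phosphoinositide phosphatase (36), MINK1, a serine/threonine kinase (8), MBD1, a reader of methylated CpG (26), and NOSIP, a nuclear E3 ligase that binds nitric oxide synthase (63). They were picked out after their values were seen, and their number was not tested against chance. Whether the 2 PTPRJ peaks share a site across the same junction was not examined, so the number of peaks may exceed that of sites.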
